A study of Homo sapiens with 16 samples.

Results

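Peaks of the ETS transcription factors ERG and GABPα were examined at 5 loci that carry genes of the T-cell leukaemia transcription factor network, RUNX1, TAL1, GATA3, LMO2 and MYB. Each locus was taken as a fixed hg18 window around the gene, namely chr21:35000000-35450000 for RUNX1, chr1:47400000-47530000 for TAL1, chr10:8050000-8250000 for GATA3, chr11:33800000-33920000 for LMO2 and chr6:135450000-135680000 for MYB, and every MACS or high confidence peak whose start lay inside was kept. The windows held 138 of 155269 peaks called by the program MACS in 10 ChIP samples, and 27 of 39138 high confidence peaks, which the authors defined as those found by both MACS and a second caller, SWEMBL. MACS peaks of all samples were joined into regions wherever they shared at least 1 base, and 78 of the 93526 regions of the whole series held a kept peak. In 77 of the 78 it was a MACS peak, and the remaining region, at the edge of the MYB window, was kept for a high confidence peak although its MACS peak starts just outside. Of these 78 regions, 35 lay in the RUNX1 window, 22 in the MYB window, 10 in the GATA3 window, 8 in the TAL1 window and 3 in the LMO2 window. A window also contains flanking sequence and may reach into neighbouring genes, and a peak in it is not assigned to the gene here.

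The study mapped binding of both factors in VCaP, a prostate cancer line whose ERG comes from a fusion to the androgen-responsive TMPRSS2 promoter, and in Jurkat, a T-cell leukaemia line that the series describes as lymphoma. VCaP had 1 sample per target before treatment (t0), 1 with vehicle (ethanol) and 1 with the synthetic androgen R1881 at 1 nM, and Jurkat had 2 numbered replicates per target with no stated treatment. The treatment protocol, repeated for every sample, places the cells in charcoal-stripped serum before androgen or ethanol, and what t0 stands for beyond its name is not given. For ERG, the antibody's catalogue number in the labels is not the one in the study's methods, so the peaks are called ERG here as the labels do.

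RUNX1 (Runt domain), TAL1 (basic helix-loop-helix), GATA3 (zinc finger) and MYB bind DNA, while LMO2 is a LIM protein that bridges TAL1 and GATA factors without binding DNA itself. In T-cell acute leukaemia these proteins occupy shared enhancers, including those of their own genes, and ETS motifs often lie beside RUNX motifs in the enhancers of T cells. ERG and GABPα recognise closely related GGAA-centred sites, ERG as a single protein and GABPα as the DNA-binding partner of GABPβ. Jurkat cells are known to carry a small insertion upstream of TAL1 that creates a MYB site, and whether any peak covers it was not analysed here.

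Promoter sequence was examined first for words that these factors read. The RefSeq promoter table of GRCh38.p14 held 1 promoter for RUNX1, 2 for TAL1, 6 for GATA3 and 1 for MYB. In the 250 bases upstream of each start, on both strands, the ETS word CCGGAAG was present in 1 of these 10 promoters, against 8.52% of all 35116 promoters. The RUNX word TGTGGT was in 2 of the 10 (11% of all), the GATA word AGATAA in 1 (9.17% of all) and the E-box CAGCTG in 1 (14% of all), and the words do not overlap each other in these promoters. The RUNX1 and MYB promoters held none of the 4 words. The sequences below are the GATA3 promoter with the ETS word and the TAL1 promoters with the GATA word and with 3 RUNX words, the words being in capitals as they or their reverse complement read on the gene's strand. Peak positions are in hg18, so none of the peaks was placed on these sequences.
GATA3, chr10:8045083-8045332, plus strand, GRCh38.p14: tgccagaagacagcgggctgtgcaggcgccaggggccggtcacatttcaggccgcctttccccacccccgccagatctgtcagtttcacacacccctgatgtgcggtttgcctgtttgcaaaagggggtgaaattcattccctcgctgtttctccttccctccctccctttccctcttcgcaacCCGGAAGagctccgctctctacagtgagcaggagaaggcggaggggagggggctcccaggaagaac
TAL1, chr1:47232336-47232585, minus strand, GRCh38.p14: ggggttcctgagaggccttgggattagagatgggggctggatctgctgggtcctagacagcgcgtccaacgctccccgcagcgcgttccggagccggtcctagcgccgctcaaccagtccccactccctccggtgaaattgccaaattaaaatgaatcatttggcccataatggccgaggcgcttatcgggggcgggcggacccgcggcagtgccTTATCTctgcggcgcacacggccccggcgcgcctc
TAL1, chr1:47231716-47231965, minus strand, GRCh38.p14: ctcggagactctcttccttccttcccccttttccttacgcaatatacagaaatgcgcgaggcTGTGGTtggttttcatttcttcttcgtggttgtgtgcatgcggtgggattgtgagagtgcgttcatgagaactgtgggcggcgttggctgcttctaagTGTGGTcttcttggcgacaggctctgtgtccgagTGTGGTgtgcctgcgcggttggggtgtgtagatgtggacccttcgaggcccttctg

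Across the whole series, samples differed in how many peaks were called, from 6963 to 23947 MACS peaks, so peak numbers in a window are also given per 1000 MACS peaks of the sample. The lowest number was that of VCaP ERG at t0, which had only 2 high confidence and 4 SWEMBL peaks in the genome. In the 5 windows together, Jurkat ERG had 1.78 and 1.84 peaks per 1000, against 0.574, 0.41 and 0.626 in VCaP ERG at t0, with vehicle and with R1881. Jurkat GABPα had 1.4 and 1.18 per 1000, against 0.105, 0.282 and 0.599 in VCaP GABPα in the same order. The 4 Jurkat samples were therefore all above the 6 VCaP samples, and how often other windows separate in this way was not computed. Of the 78 regions, 55 were called in Jurkat only (70.5%, against 36.8% of all regions of the series), 20 in VCaP only (25.6%, against 56.1%) and 3 in both lines (3.85%, against 7.05%). A single sample accounted for 38 of them (48.7%, against 62.9%). The number of reads behind each sample is unknown, and the MACS score used here for strength, a p-value turned into a log scale on which larger means stronger and which starts at 50 in these files, depends on depth as well as enrichment. To set samples side by side, each score is therefore also given as its percentile among the sample's own MACS peaks.

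**Figure D1:**
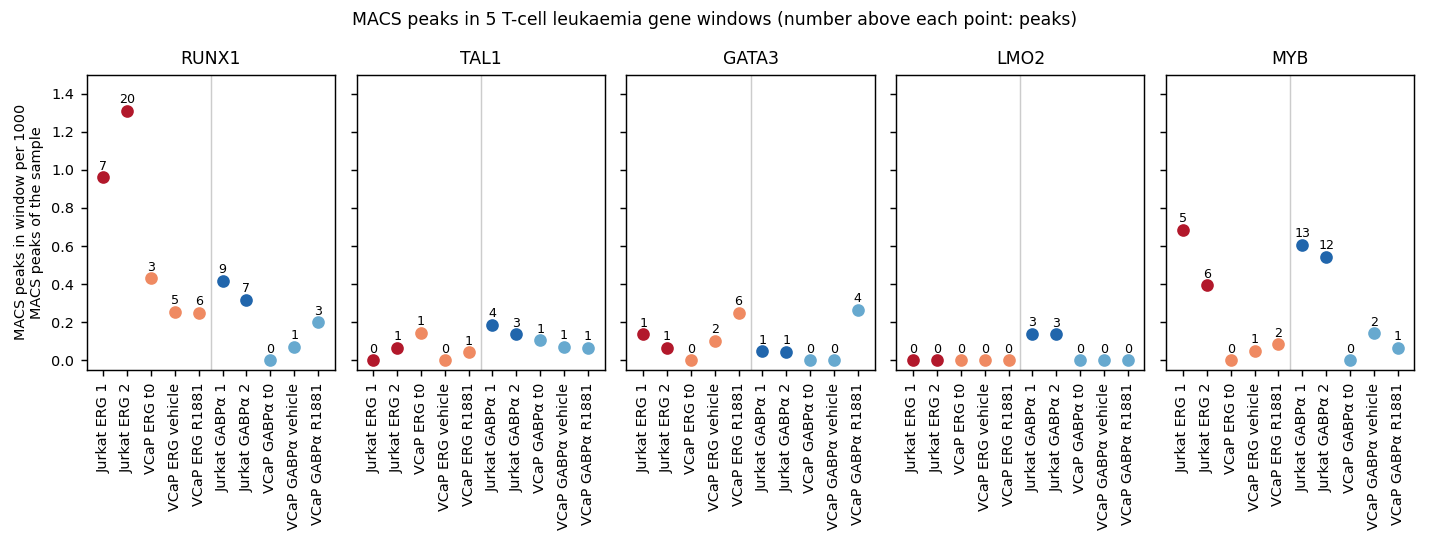
MACS peaks starting in each of the 5 windows, per 1000 MACS peaks of the sample (y axis), for each of the 10 ChIP samples (x axis), with dark red and dark blue points for Jurkat ERG and GABPα, pale red and pale blue points for VCaP, and the number of peaks above each point. In RUNX1 and MYB every Jurkat point of a target lies above every VCaP point of that target, while LMO2 has 3 peaks in each Jurkat GABPα sample and 0 in the other 8. How often other windows of the genome separate in this way was not computed.

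RUNX1, a master regulator of blood formation, had the most peaks of the 5 windows, 61 MACS peaks over 450 kb. ERG had 7 and 20 peaks in the Jurkat replicates, and 3, 5 and 6 in VCaP at t0, with vehicle and with R1881. GABPα had 9 and 7 peaks in Jurkat, and 0, 1 and 3 in VCaP. Per 1000 peaks, Jurkat ERG averaged 1.14 ± 0.249 (SD, n = 2) and VCaP ERG 0.313 ± 0.102 (SD, n = 3), and Jurkat GABPα 0.368 ± 0.0721 (n = 2) against 0.0901 ± 0.101 (n = 3) in VCaP. Jurkat exceeded VCaP by 0.551 peaks per 1000 averaged over both targets, by 0.824 for ERG and 0.277 for GABPα, with p = 0.01 in a two-sided exact permutation test of the line labels within each target, the smallest p its 100 arrangements allow. Of 6264 windows of the same length tiling the genome, 16.5% were also higher in Jurkat at a p of at most 0.05, a share that counts tiles with few peaks as well. The 3 VCaP samples are 3 treatments and not replicates, and replicate 2 held 20 of the 27 Jurkat ERG peaks. Without Jurkat ERG replicate 2 the difference was 0.463. With all samples and high confidence peaks alone the difference was 0.336 and did not pass (exact permutation p = 0.38), and with SWEMBL peaks it was 0.343 (exact permutation p = 0.25). For ERG the window held 2 of 1103 and 1 of 1801 high confidence peaks in the Jurkat replicates. In VCaP it held 1 of 743 with vehicle and 3 of 2229 with R1881. VCaP ERG at t0 entered as 0, with 2 such peaks in the genome. The high confidence difference was not computed for ERG alone or without t0, so no direction of ERG is read from it.

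In Jurkat ERG replicate 2, 15 of the 20 peaks of the RUNX1 window lay within 81.8 kb in its middle, chr21:35227679-35309452. Replicate 1 had 4 of its 7 peaks of the window in the same stretch, with 7288 MACS peaks in the genome against 15229 in replicate 2. The stretch was picked from replicate 2, so the replicates cannot be compared for density there. Of the 15 peaks of replicate 2, 12 had a score under 100 and 3 overlapped a peak of replicate 1, and the highest score was 189. Having 20 or more peaks was rare for a window of this length in that sample, at 0.351% of tiles, and so was having 7 or more in replicate 1, at 1.66%. With 6 peaks in VCaP ERG with R1881, as many or more were found in 23.3% of tiles.

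The strongest Jurkat ERG region of the RUNX1 window lay 202.4 kb from its first base, at chr21:35202362-35203193. Its score was 243 in replicate 1 and 553 in replicate 2, percentiles 93.6 and 98.5, with a high confidence peak in both. GABPα was called there in Jurkat replicate 1 only, with a score of 70.5, and no VCaP sample had a peak. A further Jurkat ERG region at 305.6 kb, chr21:35305620-35306370, scored 209 (high confidence) and 144 in the replicates and was not called in any other sample. These are 2 of 5 regions of the RUNX1 window with ERG in both Jurkat replicates and in none of the VCaP ERG samples. The 5 made up 16.7% of the 30 regions of the window with ERG, against 4.7% of all ERG regions of the genome. The other 3 of the 5 were not high confidence in any sample.

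The strongest Jurkat GABPα region of the RUNX1 window, at 396.8 kb (chr21:35396821-35397920), lay apart from the strongest Jurkat ERG region. It scored 612 and 556, percentiles 90.9 and 89.5, was high confidence in both replicates and had no ERG peak. A region at 277.6 kb, not high confidence in any sample, scored 92.2 and 197 for GABPα and 91.6 for ERG in Jurkat replicate 2. The region at 314.3 kb (chr21:35314309-35315544) scored 179 and 153, also high confidence in both and without ERG. At 239.6 kb (chr21:35239589-35241677) the scores were 463 and 467, again high confidence in both, and here ERG was called in Jurkat replicate 2 at 159 and in VCaP with vehicle at 60.1. In all, Jurkat ERG and GABPα met in 4 regions of this window, out of 22 with ERG and 9 with GABPα, while in the genome 29.2% of Jurkat ERG peaks overlapped GABPα and 19.5% of GABPα peaks overlapped ERG.

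The strongest VCaP ERG regions of the window had no Jurkat ERG peak, while the region at 239.6 kb had ERG in both lines. Few regions were shared anywhere. For either target, 2 of the 35 regions of this window were called in both lines (5.71%, against 7.05% of all regions). At 250.7 kb (chr21:35250683-35252112) ERG scored 71.8 at t0, 1159 with vehicle and 864 with R1881, high confidence with vehicle and with R1881 and at percentiles 99.9 and 99.3 there. Neither Jurkat ERG replicate had a peak in it, although replicate 2 was called on both sides, at 246.7 and 258.7 kb. At 30.59 kb (chr21:35030593-35032966) ERG scored 53.6 at t0, 58.1 with vehicle and 1479 with R1881, and at 24.21 kb (chr21:35024214-35025612) it was called with R1881 only, at 416. GABPα was called at both of these with R1881 only, scoring 133 at 30.59 kb and 90.8 at 24.21 kb. The R1881 score was thus far higher than vehicle at 30.59 kb and lower than vehicle at 250.7 kb, each from 1 sample, so no test could be made. One region, at 39.59 kb and chosen for its pattern after the values were seen, had GABPα in both Jurkat replicates (86.1 and 51.0) and in VCaP with vehicle (68.8) and R1881 (74.5).

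**Figure D2:**
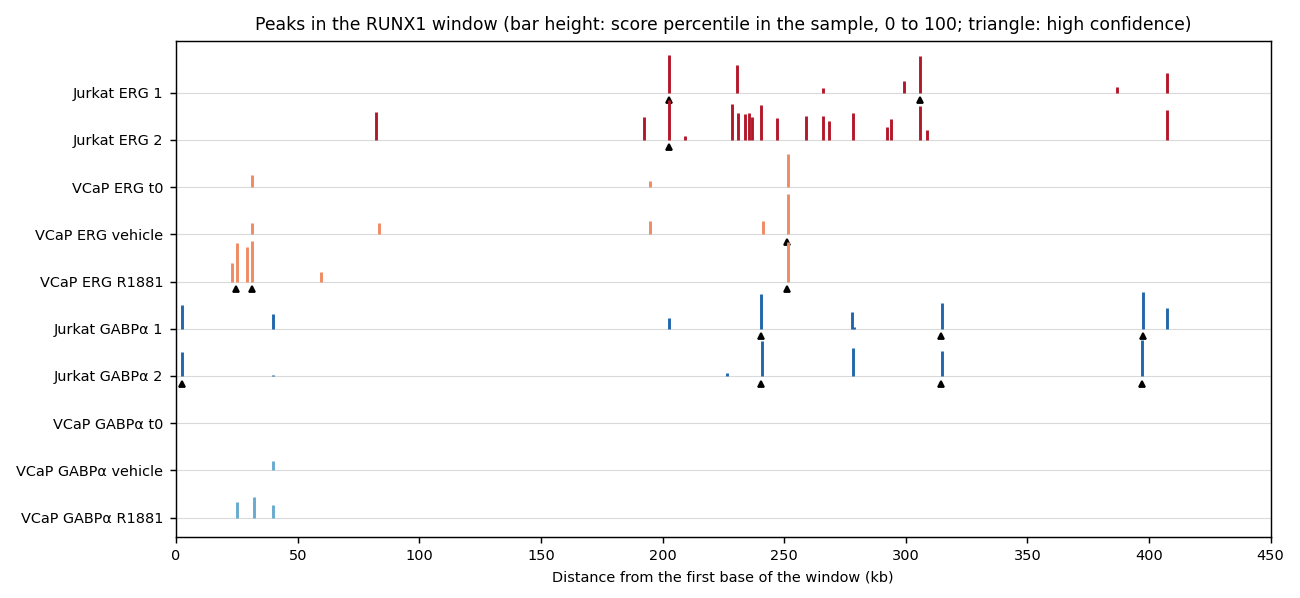
Peaks in the RUNX1 window by sample (rows), at their distance in kb from the first base of the window (x axis), with bar height giving the MACS score percentile within the sample from 0 to 100 and a black triangle under a row marking a high confidence peak. Bars of Jurkat ERG replicate 2 cluster between 227.7 and 308.3 kb, the VCaP ERG bars with a triangle stand at 24.21, 30.59 and 250.7 kb, and VCaP GABPα has no bar right of 39.59 kb.

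MYB, a proto-oncogene that keeps blood progenitors dividing, had the widest gap in GABPα. The Jurkat GABPα replicates had 13 and 12 peaks in its 230 kb window, and VCaP GABPα had 0, 2 and 1 at t0, with vehicle and with R1881. Jurkat ERG had 5 and 6 peaks, and VCaP ERG 0, 1 and 2. For both targets the Jurkat peak numbers did not overlap those of VCaP. How often tiles separate in this way was not computed, so nothing is read from the separation. As many peaks as in the Jurkat GABPα replicates were found in 0.478% and 0.623% of 11712 tiles of this length.

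Per 1000 peaks, the MYB window averaged 0.54 ± 0.207 (SD, n = 2) in Jurkat ERG and 0.0449 ± 0.0421 (SD, n = 3) in VCaP ERG. For GABPα the means were 0.574 ± 0.0437 (n = 2) and 0.0692 ± 0.0705 (n = 3). The difference was 0.5 per 1000 over both targets, 0.495 for ERG and 0.504 for GABPα, with p = 0.01 by the same exact permutation test, again its smallest value. Of the tiles, 14.3% were higher in Jurkat at a p of at most 0.05. Whether the difference itself differed between targets was tested by exact permutation in both windows, with p = 0.27 for RUNX1 and 0.97 for MYB.

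The leading region of the MYB window lay at 107.7 kb, chr6:135557658-135558985. Jurkat ERG scored 289 in replicate 1 and 299.6 in replicate 2, percentiles 95.3 and 95, high confidence in both. GABPα was called in this region in both Jurkat replicates with lower scores, 67.3 and 139, and no VCaP sample had a peak. The GABPα peak of replicate 1 ended at 135558284, before the high confidence ERG peaks, which began at 135558308 and 135558324. That of replicate 2 covered them. A high confidence GABPα peak was found in Jurkat replicate 2 at 145.9 kb (chr6:135595917-135596465), where the replicates scored 124 and 129.5 and ERG was absent, and another, scoring 102, in a region that begins just before the window, chr6:135449853-135451387. ERG and GABPα coincided in Jurkat in 6 of the 9 ERG regions of this window. The RUNX1 window had 4 of 22, the TAL1 window 1 of 1 and the GATA3 window 0 of 2. With replicates joined, 11 of 34 Jurkat ERG peaks of all windows together overlapped GABPα (32.4%), against 29.2% in the genome. These shares carry no test, since peaks of 1 sample are not replicates.

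One MYB region was shared by the lines, at 179.4 kb (chr6:135629429-135630428), and is given after its values were seen. ERG scored 84.1 in Jurkat replicate 2 and 77.4 in VCaP with R1881, and GABPα scored 91.4 with vehicle and 56.8 with R1881 in VCaP. MACS called no GABPα peak there in Jurkat, but SWEMBL did in both replicates. The other VCaP regions of this window were at 164.4 and 183.4 kb, with scores from 61.7 to 117.

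LMO2, the LIM-domain bridging protein, had GABPα peaks in Jurkat and no peak of any other sample. Each Jurkat GABPα replicate had 3 MACS peaks in the 120 kb window, at the same 3 positions, and the other 8 samples had 0. The strongest, at 97.62 kb (chr11:33897616-33898284), scored 413 and 388, percentiles 84.5 and 84, and was high confidence in replicate 2. The region at 108.1 kb (chr11:33908124-33908971) scored 57.8 and 141, and that at 113 kb (chr11:33912955-33913632) 70.8 and 55.9, the first of these being high confidence. At 0.138 ± 0.0027 peaks per 1000 (SD, n = 2) against 0, the line difference over both targets was 0.0688 per 1000 with an exact permutation p = 0.1. That is the smallest p these values allow, because all ERG samples had 0 peaks, so the test could not pass here, and nothing is read from the 11.7% of 20638 tiles of this length that reached a p of at most 0.05 in that direction. As many peaks as in the replicates were found in 11.8% and 12.5% of tiles, so the number itself was common.

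TAL1, the basic helix-loop-helix factor that is switched on in many T-cell leukaemias, had few peaks, 13 in 130 kb. ERG had 0 and 1 in the Jurkat replicates and 1, 0 and 1 in VCaP at t0, with vehicle and with R1881. GABPα had 4 and 3 in Jurkat and 1 in each VCaP sample. The line difference was 0.0256 per 1000, −0.029 for ERG and 0.0802 for GABPα, with an exact permutation p = 0.51, and 11.8% of 19290 tiles were higher in Jurkat at a p of at most 0.05. Jurkat and VCaP GABPα peak numbers did not overlap, and those of ERG did. Jurkat GABPα also had more MACS peaks in the genome, 21503 and 22108, against 9531, 14183 and 15013 in VCaP. How often tiles separate in this way was not computed, so nothing is read from it.

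The GABPα peak of VCaP in the TAL1 window was at 17.11 kb, chr1:47417105-47418159. It scored 242 at t0, 871 with vehicle and 698 with R1881, percentiles 73.9, 79.8 and 78.4, and was high confidence in all 3. MACS called nothing there in Jurkat, while SWEMBL called a peak in both Jurkat GABPα replicates. Jurkat GABPα had its own strongest region at 77.11 kb (chr1:47477107-47478055), scoring 199 and 182 and high confidence in replicate 2, where SWEMBL alone also called ERG in Jurkat replicate 2. At 101 kb (chr1:47500994-47501795) GABPα scored 99.2 and 89.3 in Jurkat and ERG 55.6 in replicate 2. RefSeq places TAL1 between PDZK1IP1 and STIL, and which of these genes a peak lies nearest to was not analysed here.

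GATA3, which directs T-cell development and also acts in luminal epithelia, had most of its regions in VCaP, as did the whole series. ERG had 1 and 1 peaks in the Jurkat replicates and 0, 2 and 6 in VCaP at t0, with vehicle and with R1881. GABPα had 1 and 1 in Jurkat and 0, 0 and 4 in VCaP. Of the 10 regions, 7 were called in VCaP only (70%, against 56.1% of all regions of the series) and 3 in Jurkat only (30%, against 36.8%). The samples of the lines overlapped, with a difference of −0.0296 peaks per 1000 and an exact permutation p = 0.66, and 7.64% of 13324 tiles were higher in VCaP at a p of at most 0.05.

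Within VCaP most GATA3 peaks came from the androgen samples, 6 of 8 for ERG and 4 of 4 for GABPα, while over the whole genome the R1881 samples held 47.5% of the VCaP ERG peaks and 38.8% of the VCaP GABPα peaks. At 98.5 kb (chr10:8148501-8149080) ERG scored 392 with R1881 and was not called at t0 or with vehicle. At 160.2 kb (chr10:8210210-8211078) it scored 229.6 with vehicle and 389 with R1881, and at 169.4 kb (chr10:8219444-8220217) 319.9 with R1881 only. All 3 were high confidence with R1881 and lay between percentiles 92.9 and 94.9. GABPα was called with R1881 only at 98.5 kb (54.1) and at 169.4 kb (261), and not at 160.2 kb. The strongest Jurkat region was a GABPα region at 120.4 kb, chosen after its values were seen, with scores of 249 and 235 and no peak in VCaP.

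**Figure D3:**
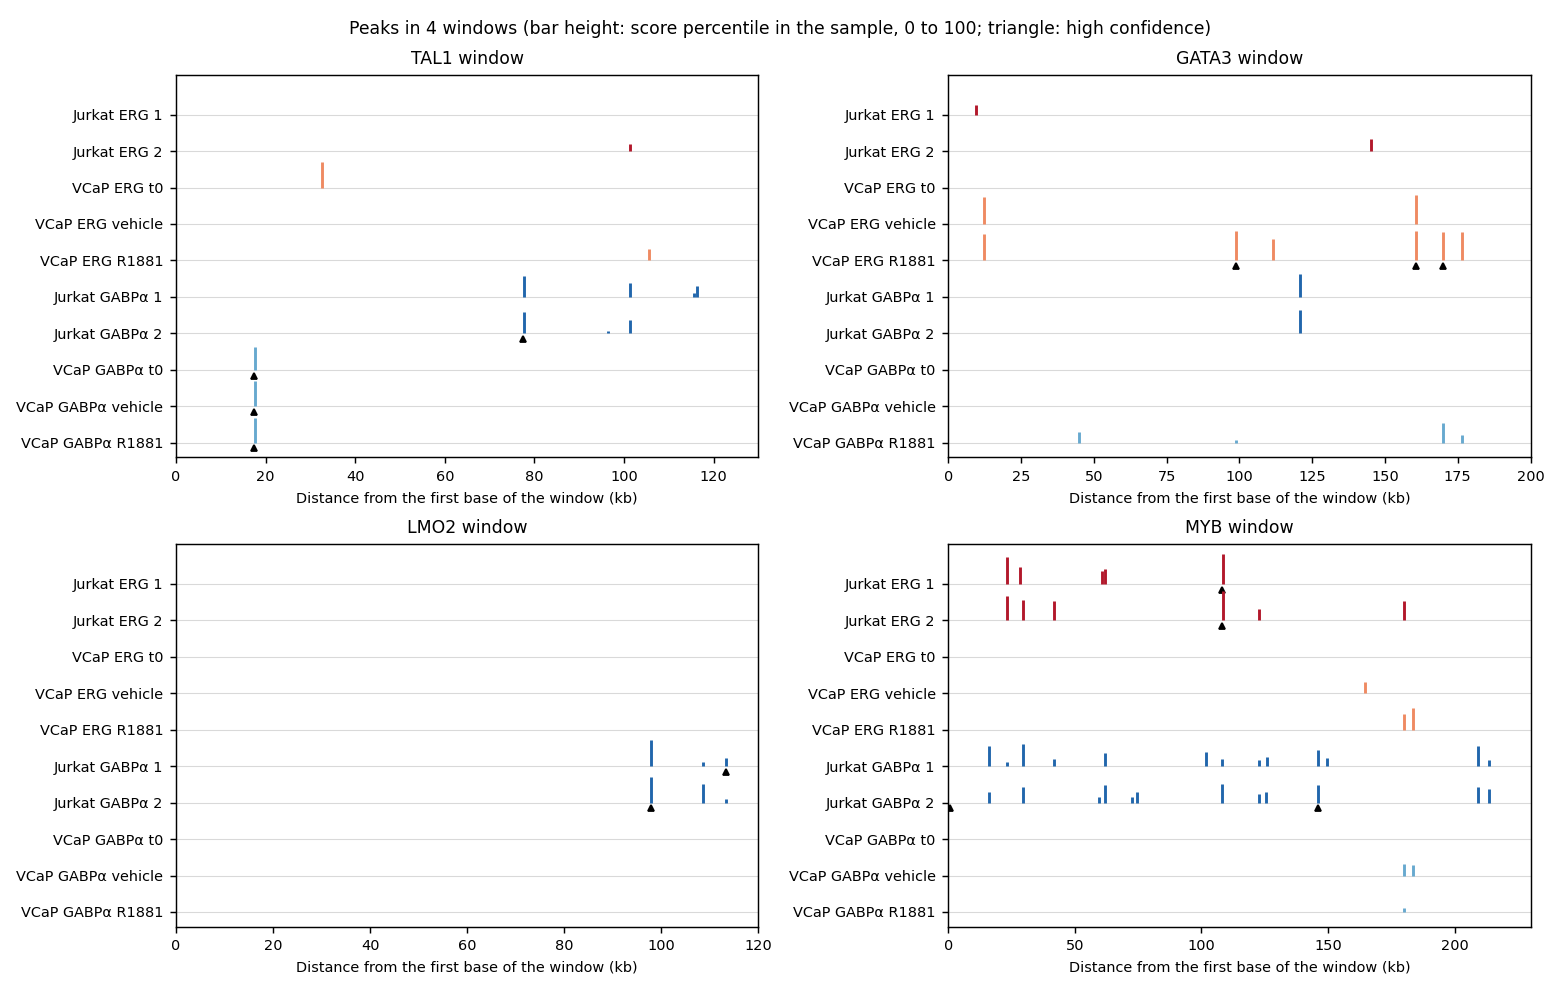
Peaks in the TAL1, GATA3, LMO2 and MYB windows by sample (rows), at their distance in kb from the first base of the window (x axis), with bar height giving the score percentile within the sample and black triangles marking high confidence peaks. Jurkat GABPα (dark blue) fills the MYB window and has the only bars of the LMO2 window, while VCaP ERG with R1881 has 6 bars in the GATA3 window. The triangle at the left edge of the MYB window belongs to a peak that begins before it.

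Taken by region, ERG was called somewhere in the windows in 52 of the 78 regions and GABPα in 44. In the counts that follow, each target was judged on its own samples alone. ERG was present in both Jurkat replicates and in no VCaP ERG sample in 7 of 52 regions (13.5%), against 4.7% of all ERG regions of the genome. GABPα was present in both Jurkat replicates and in no VCaP GABPα sample in 20 of 44 (45.5%), against 25.3%. In the opposite direction, ERG was in VCaP with vehicle and with R1881 and in neither Jurkat replicate in 4 of 52 (7.69%), against 12.2%, and GABPα in 2 of 44 (4.55%), against 12.6%. No ERG region was present in both Jurkat replicates and in both VCaP samples (0.405% in the genome), and 1 GABPα region was (2.27%, against 6.6%).

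A missing MACS peak was not always a missing signal. Both GABPα regions called in VCaP with vehicle and R1881 but not in Jurkat, in the TAL1 and MYB windows, had a SWEMBL peak in Jurkat GABPα, whereas in the genome 19.7% of 5897 such regions did. None of the 20 GABPα regions of Jurkat only had a SWEMBL peak in VCaP, against 0.177% of 11838 in the genome. For ERG, 0 of the 4 VCaP regions and 0 of the 7 Jurkat regions had a SWEMBL peak in the other line, which was also rare in the genome (0.0419% of 7153 and 0.182% of 2751).

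**Figure D4:**
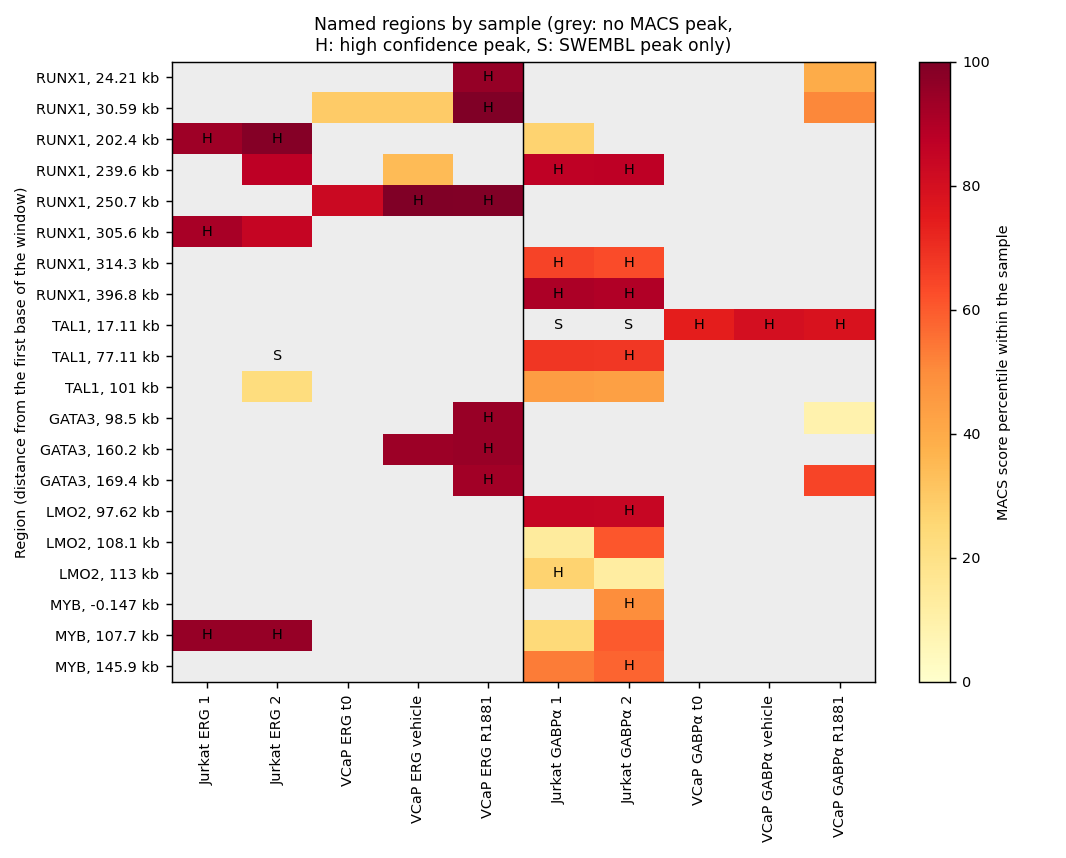
The 20 regions described by rule (rows, by window and distance in kb) in the 10 samples (columns), coloured by MACS score percentile within the sample, with H for a high confidence peak, S for a peak called by SWEMBL only, and grey for no MACS peak. Filled ERG cells fall either in the Jurkat or in the VCaP columns except at 239.6 kb of RUNX1, and the S cells at 17.11 kb of TAL1 sit beside 3 high confidence VCaP cells.

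The windows stood out in different ways by strength. In VCaP ERG with R1881, 7 of 15 peaks were among the top 10% of that sample's scores, and their median percentile was 85.3. With vehicle 2 of 8 were, with a median of 36.2, and at t0 0 of 4, with a median of 55.3. Jurkat ERG had 3 of 13 and 2 of 28 in the top 10%, with median percentiles of 49.8 and 62.4. Jurkat GABPα had 1 of 30 and 0 of 26, with medians of 41.1 and 49. VCaP GABPα had 0 of 4 with vehicle and 0 of 9 with R1881, with medians of 35.5 and 35.7, and its 1 peak at t0 was at 73.9. High confidence peaks underlay 40% of the 15 VCaP ERG peaks with R1881, against 8.54% of all its peaks, and 19.6% of the 56 Jurkat GABPα peaks, against 35.6% of all. The GABPα peaks of these windows thus had medians below 50 in both Jurkat replicates and in VCaP with vehicle and R1881, and among VCaP ERG samples the high median was that of R1881. These shares were not tested.

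The Jurkat replicates shared peaks in the windows at close to their genome-wide rates. Of Jurkat ERG replicate 1 peaks, 7 of 13 were found in replicate 2 (53.8%, exact binomial 95% interval 25.1 to 80.8%), against 49.4% in the genome, and 7 of 28 the other way (25%), against 21.2%. For Jurkat GABPα, 22 of 30 (73.3%) and 21 of 26 (80.8%) were found in the other replicate, against 72.7% and 71%. In VCaP, 4 of 8 ERG peaks with vehicle were found with R1881 (50%, against 40.4% in the genome), and 4 of 15 with R1881 were found with vehicle (26.7%, against 32.3%). For VCaP GABPα, 3 of 4 peaks with vehicle were found with R1881 (75%, against 69.9%), and 3 of 9 with R1881 were found with vehicle (33.3%, interval 7.49 to 70.1%, against 66%). Intervals cover counting error only.

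Androgen was the other contrast in VCaP. ERG was called with R1881 and in neither other VCaP ERG sample in 11 of 20 regions (55%), against 38.5% in the genome. GABPα was so in 6 of 10 regions (60%), against 20.8%. Of the 4 windows that had any VCaP peak, GATA3 gave 4 of these ERG regions and 4 of these GABPα regions, and RUNX1 4 and 2. With vehicle, 0 of 8 ERG peaks in the windows overlapped a GABPα peak (0%, interval 0 to 36.9%), and with R1881 6 of 15 did (40%, 16.3 to 67.7%), against 13.4% and 16.3% in the genome. Of the 6 GABPα peaks with R1881 that were absent with vehicle, 5 lay on an ERG peak, against 38.6% of such peaks in the genome. Each treatment is 1 sample, no input sample is named for R1881, and the numbers of peaks are small, so none of these differences was tested.

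In Jurkat, 11 of 34 ERG peaks with replicates joined overlapped GABPα (32.4%, exact binomial 95% interval 17.4 to 50.5%), against 29.2% in the genome. The overlap was made up of 6 MYB regions, 4 RUNX1 regions and 1 TAL1 region. None of the ERG peaks of the GATA3 window overlapped GABPα in Jurkat, and the LMO2 window had no ERG peak. In VCaP with R1881 the 6 shared regions were 3 in GATA3, 2 in RUNX1 and 1 in MYB.

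**Figure D5:**
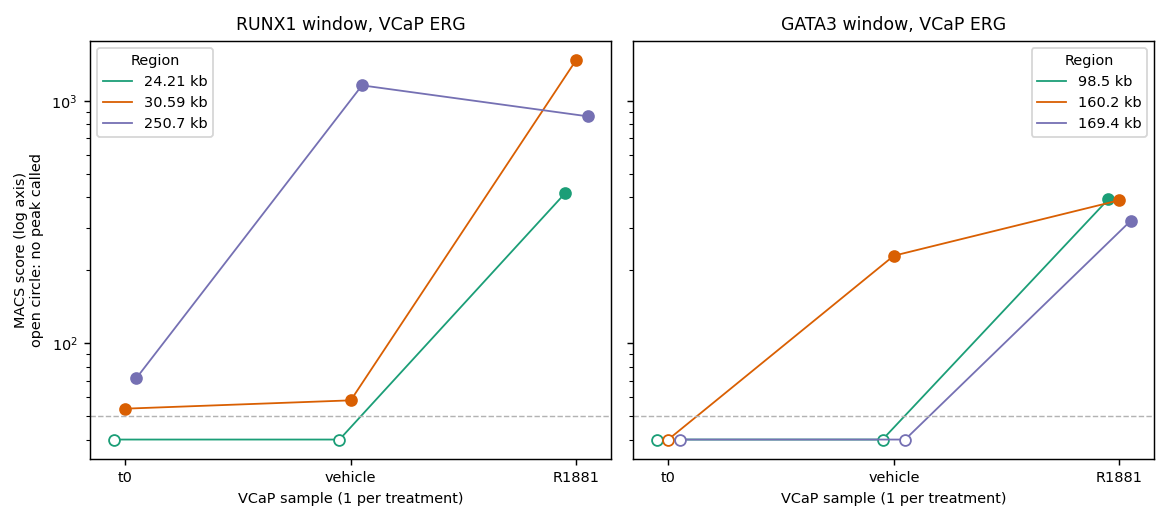
MACS score of VCaP ERG (y axis, log scale) at t0, with vehicle and with R1881 (x axis, 1 sample each) in the RUNX1 and GATA3 regions with a high confidence VCaP ERG peak, labelled by distance from the first base of the window. Filled circles are called peaks, open circles below the dashed line at the lowest score of 50 mark samples with no peak, and the line at 250.7 kb of RUNX1 is the only one that falls from vehicle to R1881.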

How the data were processed

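ChIP-seq of ERG and GABPα was analysed from peak files of 10 samples, 6 from VCaP and 4 from Jurkat, and the 6 input samples had no peak file among those used here. Jurkat had 1 input per target, named after replicate 1. VCaP inputs were named t0 and vehicle, and none was named R1881. The authors aligned reads to hg18 with BWA 0.5.5, as their processing notes give it, and called peaks per sample against input with MACS and SWEMBL, whose versions are not given in the sources used here. The deposited MACS files give a score per peak, and the lowest score is 50. SWEMBL and high confidence files were used for positions only, other values in them not being used, including a column without stated meaning in 3 high confidence files. Read counts are not in these files, so depth is unknown.

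Windows, overlaps (at least 1 base), regions, percentiles and permutation tests were computed with Python 3.11.15, numpy 2.4.6 and scipy 1.17.1, and figures were drawn with matplotlib 3.10.9. The permutation test was tested on simulated data. Windows were compared with tiles of equal length that held a MACS peak in any sample. In each window, regions with a high confidence peak were named, at most 8 by number of samples and then score percentile, and where fewer than 3 had one, those called in most samples were added. The loci, lists and tests were chosen with earlier results of these data known. Replicate numbers come from the labels, which do not say whether cultures were separate, and p-values then measure the spread between samples, which may be technical. No hg18 genome or annotation was used, so peak sequence and gene distances were not analysed here. The alternatives are given in the closing section.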

Additional observations from a re-analysis of the deposited data

How the results depend on the processing

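Averaged over both targets, Jurkat minus VCaP peaks per 1000 kept its direction in the RUNX1, MYB, LMO2 and GATA3 windows under all 11 alternatives run for each. In the high confidence and SWEMBL sets VCaP ERG at t0 entered with 0 peaks in each window, from 2 and 4 in the genome. Neither set was run without t0 or for ERG alone, so no direction of ERG is read from them. The RUNX1 difference was 0.336 with high confidence peaks (exact permutation p = 0.38) and 0.343 with SWEMBL peaks (p = 0.25). Without the VCaP t0 samples it was 0.558 in RUNX1 and 0.471 in MYB, each with an exact permutation p = 0.0556, the smallest that this smaller design allows. With the replicate block, in which ERG and GABPα samples of the same number were kept together, the differences of 0.551 and 0.5 had an exact permutation p = 0.1, the smallest that its 10 arrangements allow. The labels do not say that a number marks a shared culture. In Jurkat, ERG peaks overlapped GABPα of the same number in 30.8% and 21.4%, and of the other number in 15.4% and 35.7%, so overlap within a number was higher for replicate 1 only. TAL1 turned to −0.0869 with high confidence peaks (exact permutation p = 0.1) and −0.0431 with scores of at least 100 (p = 0.3).

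Counts of regions, with each target judged on its own samples alone, rested on the peak set. ERG regions in both Jurkat replicates and no VCaP sample fell from 7 to 2 with high confidence peaks, 4 with scores of at least 100 and 2 with SWEMBL peaks, and ranged from 13 to 26 when 1 Jurkat ERG replicate decided (13 without replicate 2, 26 without replicate 1). The 20 GABPα regions of this kind became 3, 10 and 4. ERG regions in VCaP with vehicle and R1881 only went from 4 to 1 with high confidence peaks and 1 with SWEMBL, and the 2 GABPα ones to 1, 1 and 0 with high confidence peaks, scores of at least 100 and SWEMBL. The 1 GABPα region of both lines was lost (0) with high confidence peaks and with scores of at least 100. ERG and GABPα overlap, 32.4% in Jurkat and 40% in VCaP with R1881, was 42.9% and 18.2% with scores of at least 100. It was 0% with high confidence and with SWEMBL peaks in both, and 0% in VCaP with vehicle. These 0% values rest on few ERG peaks. Jurkat had 5 high confidence and 7 SWEMBL ERG peaks in the windows, and VCaP with R1881 had 6 of each. The genome-wide share for these 2 peak sets was not computed, so nothing is read from the 0%. Why these values moved was not tested. Depth is unknown, so a missing peak cannot be told apart from too few reads.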
